A study of Mus musculus with 10 samples.

Results

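Ribosome biogenesis factors were taken as the 72 genes, of 21934 gene symbols in both deposited tables, whose names follow the Utp, Nop, Rrp, Nol, Imp, Exosc and Polr1 series or that are Heatr1, Fbl, Ncl, Npm1, Dkc1, Nhp2, Gar1, Wdr12, Bop1, Pes1, Nolc1, Rrn3, Ubtf, Gnl3, Bysl, Nob1, Rrs1, Wdr43, Wdr75 or Mybbp1a. Ribosome profiling sequences the stretches of mRNA that ribosomes shield from nuclease (footprints), beside input RNA from the same condition, here mRNA captured on beads. The 5 conditions were a monoclonal mouse macrophage line, immortalized from bone marrow (iBMDM), labelled sgWdr4-1, sgWdr4-2 (lentiviral guides 1 and 2 against Wdr4) or WT, and tumour-associated macrophages (TAM) labelled Wdr4 cKO (myeloid deletion of Wdr4) or Wdr4 ff (floxed Wdr4). The TAM were sorted by the surface protein F4/80 from orthotopic liver tumours grown from Hepa1-6 hepatoma cells. Each condition had 1 footprint and 1 input library, so 10 libraries in all. The sources used here do not give the driver of the myeloid deletion, the age or number of mice, or the number of cultures. The series' title asks how Wdr4, partner of the tRNA methyltransferase Mettl1, acts on translation efficiency.

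Ribosomes are assembled in the nucleolus, where RNA polymerase I transcribes the ribosomal RNA precursor. Small nucleolar ribonucleoproteins (snoRNPs) modify it, the small subunit processome and the large subunit factors fold and cut it, and the RNA exosome trims its ends and degrades the spacers. These genes are widely expressed, and many are raised by the transcription factor Myc in growing cells.

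Values are TPM, transcript abundance per gene length scaled to 1000000 per library, and changes are differences of log2(TPM + 1), which understates changes of low genes. Translation efficiency is the log2 footprint value minus the log2 input value of the same condition. The sources used here do not give the gene length behind footprint TPM. Levels compared between genes are therefore less certain than changes of 1 gene between libraries. A table's genes entered when mean input and mean footprints were each at least 5 TPM. This left 69 of the 72 members among 7536 genes in the iBMDM table and 67 among 7101 in the TAM table. Nol3 and Nol4, which match the naming rule but are not known as ribosome biogenesis genes, and Exosc6 were below it in both tables, and Utp20 and Utp25 were below it in the TAM table alone. Comparisons of 1 library with 1 library have no replicate check, and are described by size, with 2-fold as the line.

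The libraries did not all bear out their labels. Wdr4 input was 31.3 TPM under sgWdr4-1 and 44.5 TPM under sgWdr4-2, against 44.6 TPM in WT, and 20.9 TPM in cKO, against 39.8 TPM in ff. Its footprints were higher in the targeted libraries, at 24.3 and 26.9 TPM under the guides, against 13.3 TPM in WT, and at 17.7 TPM in cKO, against 8.51 TPM in ff. Whether Wdr4 was lost in the targeted libraries was not tested. Groups are therefore named by their labels alone, and every direction is one between libraries so labelled. Of 20 macrophage markers, 17 stayed below 1 TPM in all 5 input libraries, and 1 was at 5 TPM or more in each. Adgre1, which encodes F4/80, was listed at 0 in all 10 libraries. Of 14 fibroblast and stellate cell markers, 8 were at 5 TPM or more in every input and 6 were under 1 TPM in every input. Their summed input was 8962 TPM in cKO, against 6626 TPM in ff, and 7632 and 6670 TPM under the guides, against 6549 TPM in WT. Acta2 alone had 3785 TPM in cKO, against 2483 TPM in ff, and 2834 and 2462 TPM under the guides, against 2397 TPM in WT. Of 18 hepatocyte and hepatoma markers in the tables, 15 were under 1 TPM in every input and 2 were at 5 TPM or more in every input. Their summed input was 169 TPM in cKO, against 99.3 TPM in ff, and 141 and 109 TPM under the guides, against 115 TPM in WT. Mitochondrially encoded genes took 0.781% of the sgWdr4-1 footprints, against 14.6% in WT and 9.94% to 13.6% in the other 3 footprint libraries.

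Promoter sequence is shown for the gene that alone passed 2-fold under both guides, Heatr1, and for the 3 members with the most input RNA among those whose 250 bases before the start site hold the letters CACGTG, the E-box bound by Myc and other factors. Heatr1, a scaffold of the small subunit processome, lies in this RefSeq table (build GRCm38.p6) with its upstream window at chr13:12395125-12395374 on the plus strand. Nop2, a methyltransferase of the large subunit RNA, has its window at chr6:125131633-125131882 on the plus strand. Rrn3, the factor that brings RNA polymerase I to the promoter, has its window at chr16:13780449-13780698 on the plus strand. Nol11, a processome component needed for transcription of the precursor, has its window at chr11:107189382-107189631 on the minus strand. The sequences run 5′ to 3′ on the gene's strand, and capitals mark CACGTG, which reads the same on both strands:
Heatr1: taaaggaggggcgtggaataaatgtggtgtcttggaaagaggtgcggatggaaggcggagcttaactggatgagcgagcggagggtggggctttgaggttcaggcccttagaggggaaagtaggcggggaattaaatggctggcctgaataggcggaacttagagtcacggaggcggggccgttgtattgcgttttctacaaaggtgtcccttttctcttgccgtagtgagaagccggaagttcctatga
Nop2: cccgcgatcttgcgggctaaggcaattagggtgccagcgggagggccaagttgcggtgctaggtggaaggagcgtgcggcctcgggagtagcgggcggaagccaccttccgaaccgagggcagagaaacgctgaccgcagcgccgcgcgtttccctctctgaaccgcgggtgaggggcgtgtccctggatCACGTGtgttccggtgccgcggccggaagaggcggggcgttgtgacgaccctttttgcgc
Rrn3: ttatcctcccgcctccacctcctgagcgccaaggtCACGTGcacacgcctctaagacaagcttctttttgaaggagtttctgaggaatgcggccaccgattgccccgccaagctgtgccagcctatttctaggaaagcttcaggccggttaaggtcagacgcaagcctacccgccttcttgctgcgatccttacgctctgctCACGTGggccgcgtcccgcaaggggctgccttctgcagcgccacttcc
Nol11: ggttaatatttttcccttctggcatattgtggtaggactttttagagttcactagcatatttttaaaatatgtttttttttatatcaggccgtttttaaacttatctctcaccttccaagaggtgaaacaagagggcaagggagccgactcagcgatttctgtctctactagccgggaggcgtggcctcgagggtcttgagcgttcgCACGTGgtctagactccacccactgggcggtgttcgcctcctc
Of the 72 members 55 had an entry in the promoter table, and 7 of these 55 (12.7%) held CACGTG in that window. The share was 10.8% over 6066 iBMDM genes tested and 6.86% over all 27025 genes of the table, so the members lay close to the other expressed genes. Median input RNA changes under sgWdr4-1 were -0.05 for the 7 tested members with the motif and -0.21 for the 47 tested without it. In cKO they were -0.25 for the 6 tested with the motif and -0.33 for the 46 tested without it. Under sgWdr4-2 they were 0.04 for the 7 tested with the motif and -0.01 for the 47 tested without it. In all 3 comparisons the members without the motif had the lower median, by little under sgWdr4-2. The motif group holds 7 genes or fewer, and the difference was not tested.

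Before any comparison, ribosome biogenesis mRNAs carried fewer footprints per input RNA than most genes. Their median translation efficiency was -1.24 under sgWdr4-2, -1.33 in WT, -1.49 in cKO and -1.45 in ff, where the medians over all genes tested were -0.63, -0.58, -0.85 and -0.59. In WT 34 of 69 members (49.3%) lay in the lowest 25% of all genes, and in ff 34 of 67 (50.7%). Under sgWdr4-1 the members' median was -0.36, against -0.43 for all genes, and 7 of 69 members (10.1%) were in the lowest 25%. The members thus stood low in 4 conditions and level with other genes in the sgWdr4-1 library, whose footprints also had the lowest mitochondrial share of the 5 footprint libraries. The part of that library in the result was not tested.

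**Figure D1:**
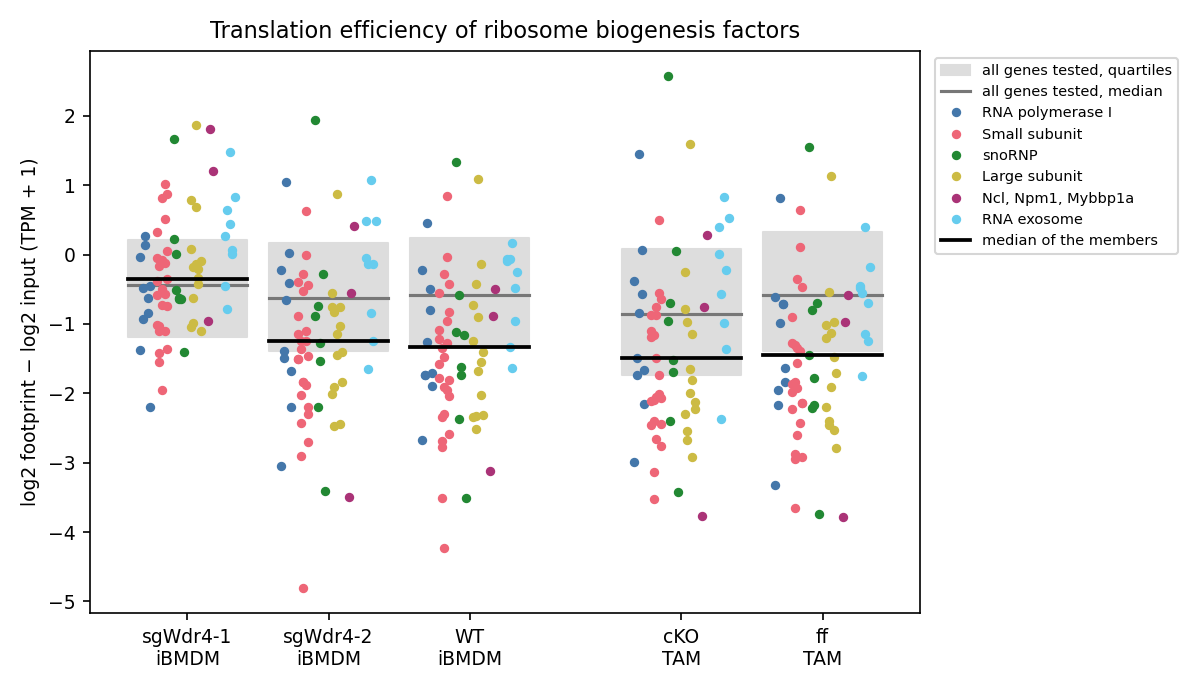
Translation efficiency (log2 footprint minus log2 input) of each ribosome biogenesis factor, 1 point per gene, in the 5 conditions, coloured by role, with the members' median in black and the median and quartiles of all genes tested in grey. The members' median is below that of all genes in sgWdr4-2, WT, cKO and ff, and at -0.36, near the -0.43 of all genes, under sgWdr4-1.

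Members differed widely in translation efficiency. Of the 67 past both filters, 41 were below 0 in all 5 conditions and 5 above 0 in all 5. Most other genes were below 0 as well. In WT 64 of 69 members and 5193 of 7536 genes were, and in ff 61 of 67 members and 4799 of 7101 genes. Under sgWdr4-1 it was 45 of 69 members and 5119 of 7536 genes. The shares of all genes below 0 or above 0 in all 5 were not computed, so these counts cannot be set against other genes. The lowest on average was Nolc1, the snoRNP chaperone also called Nopp140, between -3.73 and -1.40. Mybbp1a, a nucleolar Myb-binding protein, followed between -3.78 and -0.95, then Polr1a, the largest RNA polymerase I subunit, between -3.32 and -1.37. Each of these had its highest value under sgWdr4-1. The highest was Nop10, a small subunit of the H/ACA snoRNP, between 1.33 and 2.57, followed by Nol12, an RNA-binding factor of precursor cleavage, between 0.88 and 1.87. The other 3 above 0 throughout were Polr1h, Exosc8 and Imp4. By role, the exosome had the highest median in WT (-0.25) and the small subunit factors the lowest (-1.57). The ranges of these groups overlap, and each value rests on 1 library. The order of genes also depends on the lengths used, which are not known.

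Subunits of 1 assembly are set beside each other here, since TPM is per length. The length used for footprints is not known, so ratios between genes hold only for the TPM as deposited. The PeBoW complex of Pes1, Bop1 and Wdr12 acts in large subunit maturation, and its footprints spanned 27.0 to 36.3 TPM in WT, while input spanned 81.3 to 158 TPM. The highest subunit was 1.34 times the lowest in WT footprints and 1.94 times in WT input. In ff the ratios were 1.31 in footprints and 2.41 in input, in cKO 1.52 and 2.39, under sgWdr4-2 1.45 and 2.32, and under sgWdr4-1 2.51 and 2.47. Footprints of the 3 proteins were thus closer to equal than their mRNAs in 4 conditions, and not under sgWdr4-1. The box C/D core went the other way. Fbl, the methyltransferase fibrillarin, and its partners Nop56 and Nop58 had WT footprints 5.33-fold apart and input 1.52-fold apart, with Fbl at 63.0 TPM and Nop56 at 336 TPM of footprints. Under sgWdr4-1 the C/D footprints were 2.40-fold apart. In the box H/ACA core (Dkc1, Nhp2, Nop10, Gar1), Nop10 had the highest footprints and the lowest input in every condition.

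Input RNA of the ribosome biogenesis factors was lower in cKO than in ff for nearly every member. Of 67, 61 were below 0, where 41.2% of all genes were, and the median was -0.31, against 0.06 for all genes. No member reached 2-fold in either direction, where 1.42% of all genes were at least 2-fold higher and 0.169% lower. Under sgWdr4-1, 53 of 69 were below WT (all genes 36.8%), with a median of -0.19, against 0.08 for all genes, and 0 were 2-fold apart (all genes 0.318% higher and 0.0796% lower). Under sgWdr4-2, 32 of 69 were below WT (all genes 47.2%), with a median of 0.01 for members and for all genes, and 0 were 2-fold apart (all genes 0.0265% higher and 0.0398% lower). The cKO and sgWdr4-1 comparisons share no library, and 50 of 67 members were below 0 in both, against 25.8% of 6927 genes. Summed input of the fibroblast and of the hepatocyte markers was also higher in cKO than in ff and under sgWdr4-1 than in WT, as given above, and their part in the result was not tested. In sorted cells, fewer cells of a type and less RNA per cell cannot be told apart.

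The difference ran through every step of the pathway in cKO. All 10 RNA polymerase I genes were below 0 in cKO (median -0.36), where 41.2% of all genes were (median 0.06). So were 8 of 8 snoRNP genes (-0.40), 9 of 9 exosome genes (-0.24) and 3 of 3 among Ncl, Npm1 and Mybbp1a (-0.54). Small subunit factors were below 0 for 20 of 23 (-0.22) and large subunit factors for 11 of 14 (-0.34). The 6 members not below 0 were Rrp36 (0.25), Nop53 (0.22), Nol7 (0.18), Imp4 (0.15), Nol12 (0.07) and Rrp1 (0.01). Under sgWdr4-1 the medians were -0.50 for the Ncl group, -0.28 for snoRNP genes, -0.23 for the large subunit, -0.16 for the small subunit, -0.14 for RNA polymerase I and -0.04 for the exosome. Under sgWdr4-2 the group medians lay between -0.06 and 0.04.

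**Figure D2:**
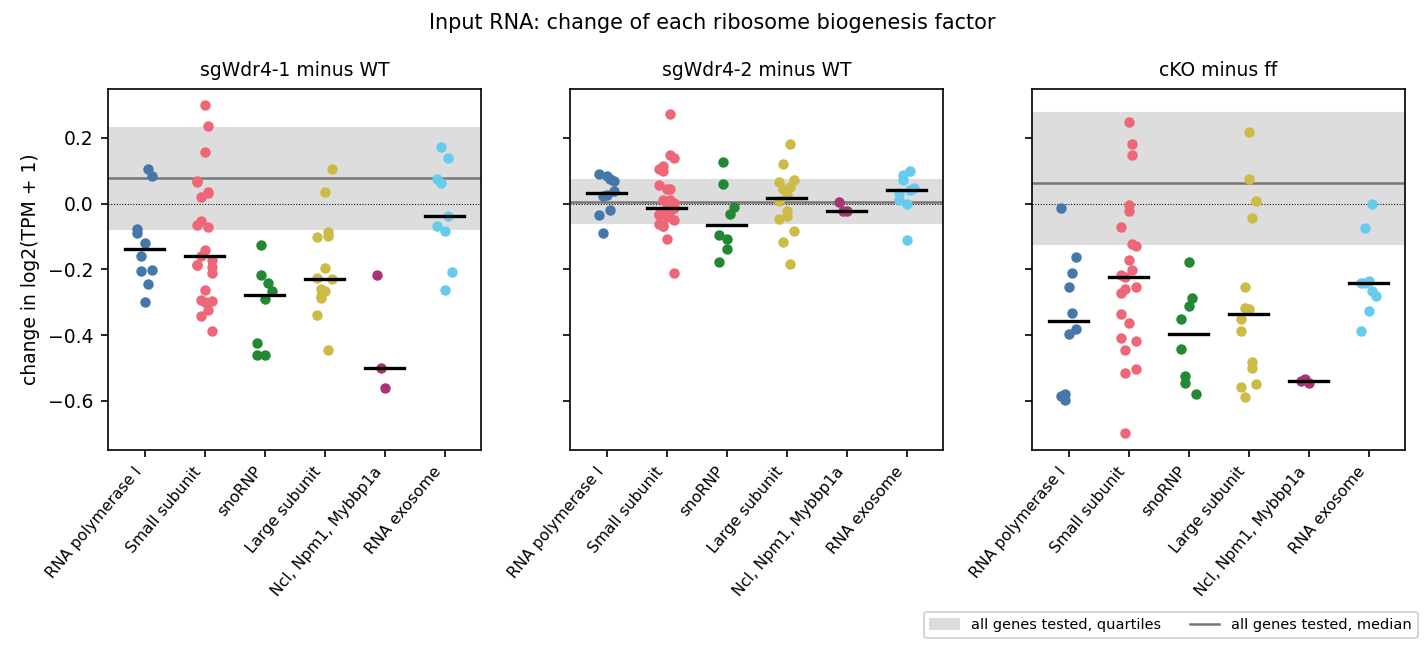
Change in input RNA of each ribosome biogenesis factor, as a difference in log2(TPM + 1), for sgWdr4-1 minus WT, sgWdr4-2 minus WT and cKO minus ff, grouped by role with group medians in black and all genes tested in grey. In cKO 61 of 67 points lie below 0, under sgWdr4-1 53 of 69, and under sgWdr4-2 the points lie on both sides of 0.

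Heatr1 had the lowest value in cKO, with input of 54.2 TPM in cKO, against 88.6 TPM in ff (-0.70), and of 61.3 and 74.2 TPM under the guides, against 77.8 TPM in WT. Polr1g, a polymerase I-specific subunit, had 33.7 TPM in cKO, against 51.5 TPM in ff (-0.60). Nop2 had 134 TPM in cKO, against 202 TPM in ff (-0.59). The lowest under sgWdr4-1 was Npm1, nucleophosmin, an abundant nucleolar chaperone, with 1558 TPM, and with 2266 TPM under sgWdr4-2, against 2301 TPM in WT. It had 1590 TPM in cKO, against 2323 TPM in ff. Npm1 has many processed pseudogenes and the sources used here do not say how reads with several matches were counted, so its level is uncertain. Ncl, nucleolin, which binds the precursor RNA, had 279 TPM under sgWdr4-1 and 388 TPM under sgWdr4-2, against 395 TPM in WT, and 283 TPM in cKO, against 409.6 TPM in ff. In both genes the sgWdr4-1 and cKO libraries were low and the sgWdr4-2 library was level with WT.

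A few genes stood higher. Rrp36, an early small subunit factor, was the highest member in input under sgWdr4-1 (0.30) and in cKO (0.25), with 41.0 TPM under sgWdr4-1 and 34.2 TPM under sgWdr4-2, against 33.1 TPM in WT. Utp23, another early factor, was the highest under sgWdr4-2 (0.27) and was at 0.24 under sgWdr4-1 and -0.17 in cKO. Exosc10, the nuclear exonuclease, was also among the highest under sgWdr4-1 (0.17), and Nol8 (0.18) and Rrp9 (0.15), a protein of the U3 snoRNP, followed Utp23 under sgWdr4-2. The lowest under sgWdr4-2 were Utp11 (-0.21), Wdr12 (-0.19) and Nop10 (-0.18), and after Npm1 and Ncl under sgWdr4-1 came Nop58 (-0.46). By limma over the guide lines and WT, with Benjamini-Hochberg adjustment over 7536 genes, 0 of 69 members passed for input RNA. None was at an unadjusted p under 0.05 either, where 0.73% of all genes were, and the lowest adjusted p was 0.9998. That test has 1 residual degree of freedom and takes its spread largely from all genes of similar level. A gene's own difference between the guides thus enters little. For footprints the SE was 0.72 for Ncl, with the guides at 2.20 and 0.30, and 0.85 for Polr1f, with the guides at 0.12 and 0.09. The test therefore does not show whether the guides agree for a gene.

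Footprints of the members were higher under sgWdr4-1 than in WT, by a median of 0.99, against 0.09 for all genes, and 60 of 69 were above 0 (all genes 53.6%). At least 2-fold higher were 33 of 69 (47.8%), where 16.1% of all genes were, and 0 were at least 2-fold lower (all genes 10.3%). Under sgWdr4-2 the median was 0.13, against -0.03 for all genes, with 47 of 69 above 0 (all genes 47.5%), 1 member 2-fold higher (Heatr1; all genes 3.03%) and 1 lower (Utp25; all genes 4.63%). In cKO the median was -0.20, the same as over all genes, 24 of 67 were above 0 (all genes 36.1%), and no member was 2-fold apart in either direction (all genes 2.73% higher and 8.15% lower). The sgWdr4-1 library is the one with a mitochondrial share of 0.781%. Each library was also scaled again with mitochondrial, ribosomal protein and histone genes taken out. The members' footprint median under sgWdr4-1 was then 0.83, against -0.08 for all genes. Such scaling shifts all remaining genes of a library by nearly the same amount, so it could hardly change the gap between members and other genes. The part of the low mitochondrial share in the result was not tested.

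**Figure D3:**
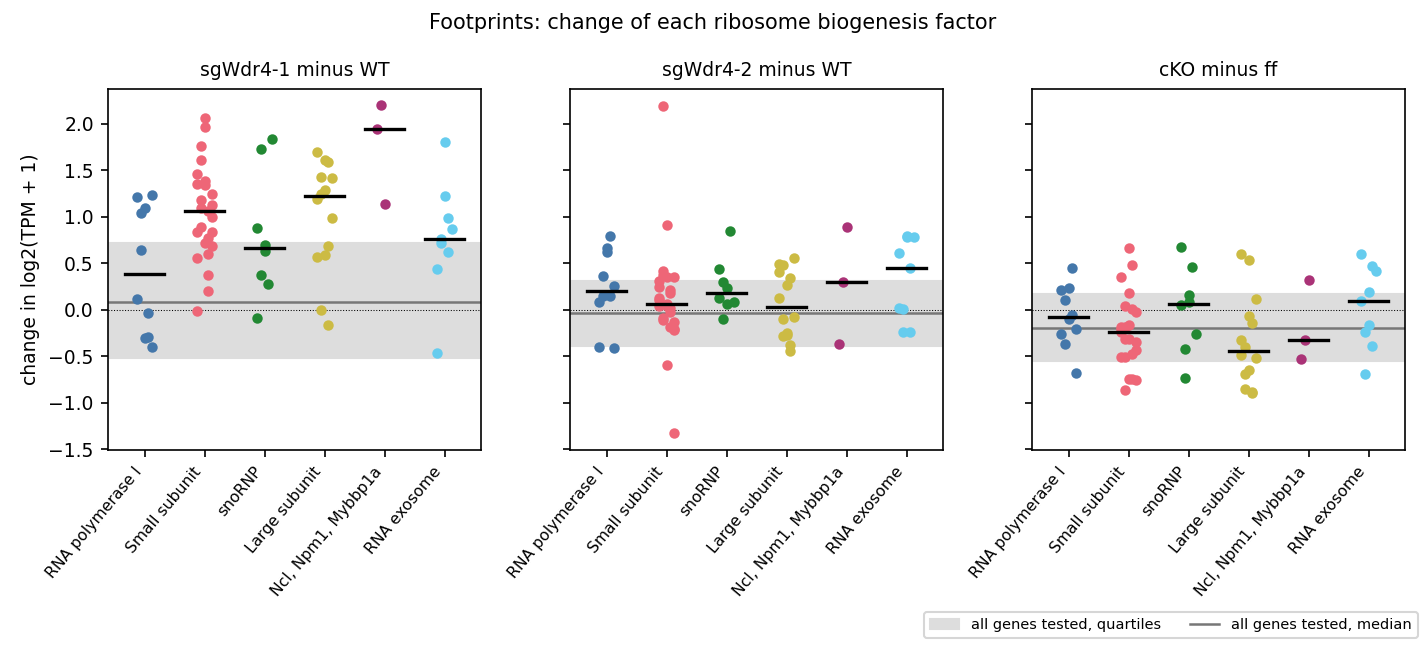
Change in footprints of each ribosome biogenesis factor, as a difference in log2(TPM + 1), for sgWdr4-1 minus WT, sgWdr4-2 minus WT and cKO minus ff, grouped by role with group medians in black and all genes tested in grey. Most points are above the grey band under sgWdr4-1 (median 0.99), and the medians are 0.13 under sgWdr4-2 and -0.20 in cKO.

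Ncl had the largest footprint change under sgWdr4-1, with 985 TPM, and 264 TPM under sgWdr4-2, against 214 TPM in WT. It had 166 TPM in cKO, against 208 TPM in ff, so the sgWdr4-1 library alone was high. Utp6, of the processome's UTP-B module, had 51.5 TPM under sgWdr4-1 and 14.9 TPM under sgWdr4-2, against 11.5 TPM in WT. Mybbp1a had 174 TPM under sgWdr4-1 and 34.1 TPM under sgWdr4-2, against 44.4 TPM in WT, and Nolc1 89.5 and 25.9 TPM, against 24.4 TPM in WT. For these genes sgWdr4-2 stood near WT or below it. Utp20, a large processome scaffold, had 19.4 TPM under sgWdr4-1 and 2.46 TPM under sgWdr4-2, against 4.20 TPM in WT, so the guides lay on opposite sides of WT at low levels. It passed the filter of 5 TPM only through the sgWdr4-1 library, the one in which it is counted as higher.

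Heatr1 was the member whose footprints were high under both guides. They were 20.2 TPM under sgWdr4-1 and 30.7 TPM under sgWdr4-2, against 5.92 TPM in WT, and 5.32 TPM in cKO, against 6.16 TPM in ff. The guide libraries thus stood well above the other 3, which were within 1 TPM of each other. Its footprint change was 1.61 under sgWdr4-1 and 2.20 under sgWdr4-2, and -0.18 in cKO. It was 1 of 56 genes (0.743% of those tested) at least 2-fold higher in footprints under both guides, which share the WT library, and no member was among the 108 lower (1.43%). By limma its log2 change was 1.90 (SE 0.85, unadjusted p = 0.0252, adjusted p = 0.99997), so it did not pass. No other member had an unadjusted p under 0.05 for footprints, where 0.863% of all genes did, and 0 members passed after adjustment, where 0.0133% of all genes did.

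Translation efficiency under sgWdr4-1 was higher than in WT for 63 of 69 members (all genes 50.5%), with a median of 1.18, against 0.01 for all genes. At least 2-fold higher were 40 (58.0%; all genes 14.8%) and 0 were lower (all genes 13.7%). Under sgWdr4-2 the median was 0.17, against -0.05 for all genes, with 47 of 69 above 0 (all genes 46.5%), 1 at least 2-fold higher (all genes 3.53%) and 1 lower (all genes 4.87%). In cKO it was 0.16, against -0.25 for all genes, with 42 of 67 above 0 (all genes 35.1%). There 1 member was 2-fold higher, Nop10 (all genes 4.03%), and 0 lower (all genes 16%). In cKO the members' footprint median equalled that of all genes while their input median was lower, and the efficiency is the difference of these values.

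**Figure D4:**
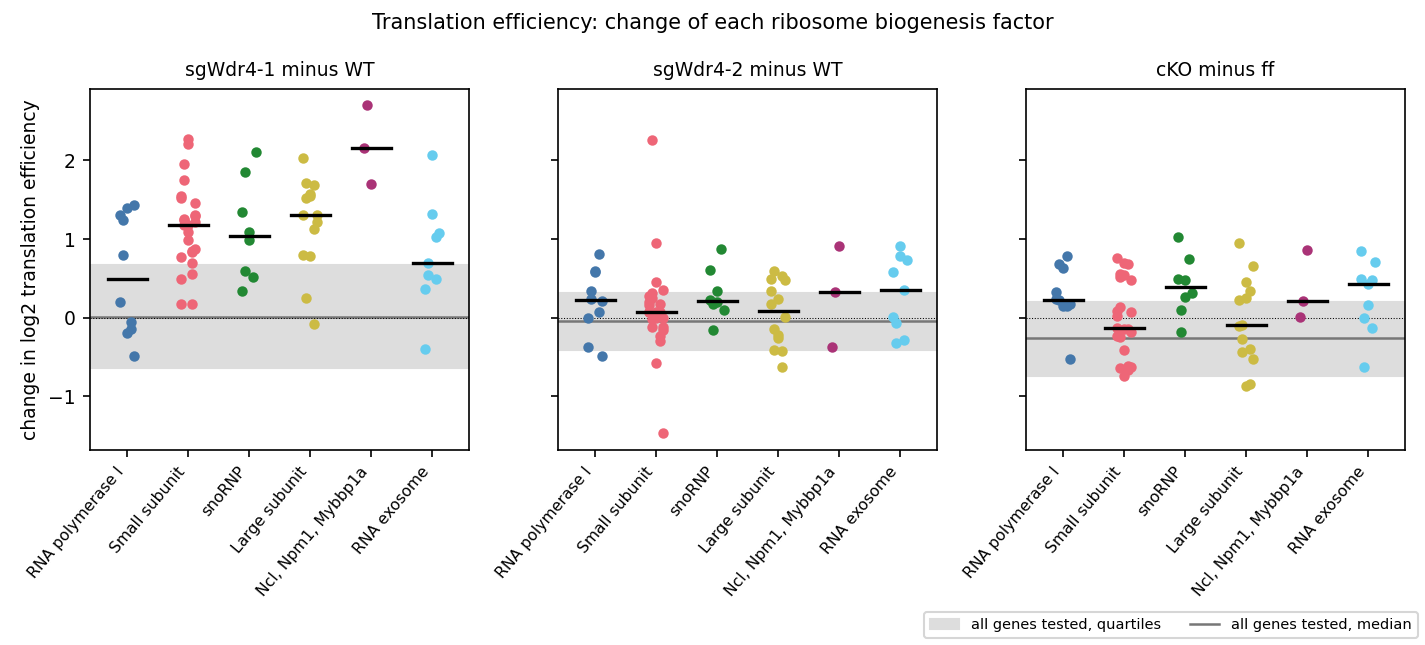
Change in translation efficiency of each ribosome biogenesis factor (log2 footprint minus log2 input) for sgWdr4-1 minus WT, sgWdr4-2 minus WT and cKO minus ff, grouped by role with group medians in black and all genes tested in grey. Group medians under sgWdr4-1 run from 0.50 for RNA polymerase I to 2.16 for Ncl, Npm1 and Mybbp1a, and most points under sgWdr4-2 and in cKO lie between -1 and 1.

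Among RNA polymerase I genes the subunits split under sgWdr4-1. Polr1e (1.44), Polr1c (1.39), Polr1a (1.30) and Polr1g (1.25) were past 2-fold in translation efficiency, while Polr1d (-0.05), Polr1h (-0.19) and the initiation factor Rrn3 (-0.14) were not above WT. Polr1c and Polr1d are also subunits of RNA polymerase III. Under sgWdr4-2 Polr1d was among the higher members (0.81), as in cKO (0.78), with footprints of 319 TPM under sgWdr4-2, against 184 TPM in WT, and of 257 TPM in cKO, against 188 TPM in ff. Polr1a was at -0.37 under sgWdr4-2 and 0.32 in cKO. Ubtf, which binds the ribosomal DNA promoter, was at -0.49 under sgWdr4-1, -0.48 under sgWdr4-2 and -0.52 in cKO. Its footprints were 28.3 and 28.1 TPM under the guides, against 37.7 TPM in WT, and 25.3 TPM in cKO, against 41.2 TPM in ff, with input between 116 and 133 TPM throughout. The targeted libraries were thus the 3 lowest in Ubtf footprints, each by less than 2-fold. Footprints were below 0 in all 3 comparisons for 20.6% of 6927 genes and for 3 of 67 members (4.48%), so the direction alone is common among genes.

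Small subunit factors had translation efficiency above WT under sgWdr4-1 for 25 of 25 genes (all genes 50.5%), with a median of 1.19. At least 2-fold higher were 15 of the 25 (all genes 14.8%). The highest were Utp20 (2.27), Utp6 (2.21) and Heatr1 (1.95). Utp20 passed the filter only through its sgWdr4-1 footprints, so its place here rests on the library where it was high. Under sgWdr4-2 the median was 0.07 and the ends were Heatr1 (2.26) and Utp25 (-1.47). Utp25 footprints were 10.8 TPM under sgWdr4-1 and 1.92 TPM under sgWdr4-2, against 6.33 TPM in WT, low values on which the change rests. Without the sgWdr4-1 library the mean Utp25 footprints would be below the filter. In cKO the median was -0.13, with Bysl, of late small subunit maturation, at 0.76 and Nol6, the Utp22 counterpart, at -0.74. Nol7 (-0.66), Rrp12 (-0.64) and Nop14 (-0.63) were also among the 6 lowest members in cKO. Wdr43 and Utp4, early processome proteins, had the most input RNA of this group. Wdr43 was at 0.70, 0.17 and 0.14 and Utp4 at 1.26, 0.26 and 0.48 for sgWdr4-1, sgWdr4-2 and cKO. Imp3, of the Mpp10 complex, was at 0.99 under sgWdr4-1, 0.96 under sgWdr4-2 and 0.69 in cKO. Its partner Imp4 was at 0.17, -0.23 and -0.14 in the same order.

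Heatr1 was again the 1 member past 2-fold under both guides for translation efficiency, where 68 genes (0.902% of all tested) were higher and 154 (2.04%) lower. It was at 0.52 in cKO, where both its input and its footprints were lower than in ff. By limma its log2 change in translation efficiency was 2.11 (SE 1.16, adjusted p = 0.9999). By limma Ncl was at 1.51 (SE 0.66, unadjusted p = 0.0220, adjusted p = 0.9999) and Npm1 at 1.31 (SE 0.63, unadjusted p = 0.0372, adjusted p = 0.9999). These were the members at an unadjusted p under 0.05 (2.90%), where 2.19% of all genes were. Neither passed after adjustment, and 0 of 69 members did, where 0.0663% of all genes did.

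The snoRNP genes were above WT for 8 of 8 under sgWdr4-1 (median 1.04; all genes 50.5% above) and 7 of 8 under sgWdr4-2 (0.21; all genes 46.5%). They were above ff for 7 of 8 in cKO (0.40; all genes 35.1%). Nop10 had footprints of 191 TPM under sgWdr4-1 and 275 TPM under sgWdr4-2, against 203 TPM in WT, and of 321 TPM in cKO, against 201 TPM in ff. Its input was 59.4 and 70.6 TPM under the guides, against 80.0 TPM in WT, and 53.2 TPM in cKO, against 68.2 TPM in ff. Its translation efficiency was higher by 0.33, 0.61 and 1.02 in sgWdr4-1, sgWdr4-2 and cKO, with input lower in each and footprints higher in sgWdr4-2 and cKO. Nhp2, which sits beside Nop10 in the H/ACA snoRNP, was at 0.52, 0.88 and 0.75, and its gene overlaps Rmnd5b. Nop56 and Nop58, the most abundant in input, were at 0.59 and 1.09 under sgWdr4-1, -0.16 and 0.20 under sgWdr4-2, and 0.10 and 0.26 in cKO. Nolc1 (2.10) and Fbl (1.86) led under sgWdr4-1 and were at 0.10 and 0.17 under sgWdr4-2.

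Large subunit factors were at least 2-fold higher in translation efficiency under sgWdr4-1 for 10 of 14 genes (median 1.31; all genes 14.8%). Nop16, a nucleolar factor bound to the large subunit precursor, led with 2.03, followed by Nop2 (1.71) and Pes1 (1.69). Under sgWdr4-2 the median was 0.09, with Rrp8, a methyltransferase of the large subunit RNA, at 0.60, and Nol8 at -0.63. In cKO it was -0.09, and Nop53 (-0.87) and Nol8 (-0.84) were the lowest of all members, while Rrp15 (0.95) was the second highest. Nol8 footprints were 11.8 and 9.51 TPM under the guides, against 13.3 TPM in WT, and 3.31 TPM in cKO, against 6.93 TPM in ff. Rrp1, the most abundant of the group in input, was at 1.31, 0.01 and -0.52. Pes1 footprints were 14.9 TPM in cKO, against 28.5 TPM in ff, the lowest footprint change of any member there (-0.89). Gnl3, the nucleolar GTPase nucleostemin, was at 0.25, -0.40 and -0.44 for sgWdr4-1, sgWdr4-2 and cKO.

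Npm1 was higher in translation efficiency in all the targeted libraries, by 1.70 under sgWdr4-1, 0.92 under sgWdr4-2 and 0.86 in cKO. At least 1.5-fold higher in all 3 comparisons were 3 of 67 members (Exosc4, Imp3 and Npm1; 4.48%) and 1.41% of 6927 genes. Npm1 input changed by -0.56, -0.02 and -0.55 in the same order, and its footprints by 1.14, 0.90 and 0.32. Its footprints were 3593 and 3030 TPM under the guides, against 1628 TPM in WT, and 1942 TPM in cKO, against 1559 TPM in ff. It held 33.8% of the members' summed footprints under sgWdr4-1 and 40.4% under sgWdr4-2, against 30.4% in WT. Ncl (2.70) and Mybbp1a (2.16) were the highest of the group under sgWdr4-1. They were at 0.33 and -0.37 under sgWdr4-2 and at 0.21 and 0.01 in cKO, and the differences between guides were not tested.

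**Figure D5:**
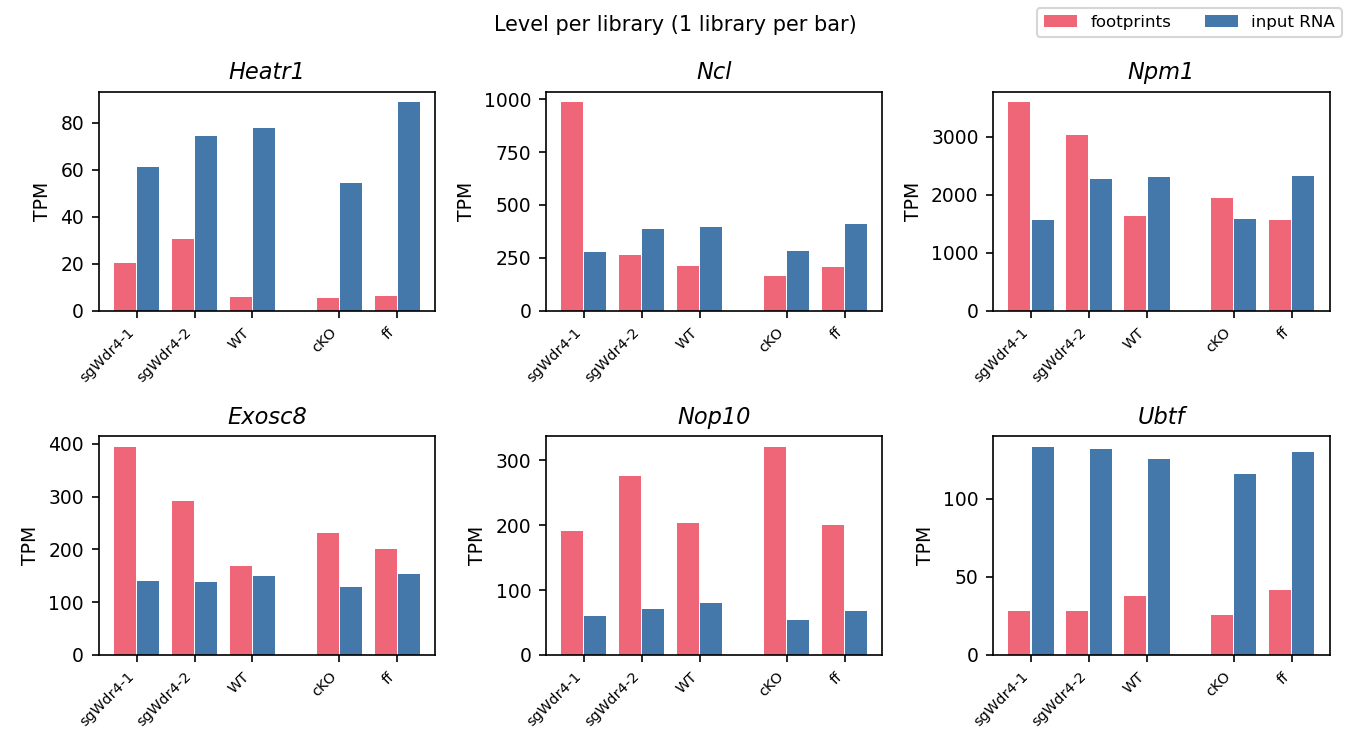
Footprint and input TPM of Heatr1, Ncl, Npm1, Exosc8, Nop10 and Ubtf in each condition, 1 library per bar, on linear axes from 0. Heatr1 footprints are 20.2 and 30.7 TPM under the guides, against 5.92 TPM in WT, Ncl footprints are high under sgWdr4-1 alone at 985 TPM, and Ubtf footprints are lowest in the 3 targeted libraries.

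Exosome genes had a median translation efficiency change of 0.70 under sgWdr4-1, 0.35 under sgWdr4-2 and 0.43 in cKO. Exosc8, a ring subunit, had footprints of 395 TPM under sgWdr4-1 and 292 TPM under sgWdr4-2, against 168 TPM in WT, and 231 TPM in cKO, against 201 TPM in ff, with input between 129 and 153 TPM. Its changes were 1.31, 0.91 and 0.43 for sgWdr4-1, sgWdr4-2 and cKO. Its gene overlaps Supt20, and the sources used here do not say whether counting used the strand, so it and the 15 other members that overlap a protein-coding gene are uncertain. Among the genes named, Bop1, Bysl, Dkc1, Gnl3, Mybbp1a, Nhp2, Nol7, Nop56, Polr1e, Rrp8 and Wdr12 are in that position. Exosc2, of the cap that contacts RNA, was at 2.07, 0.78 and 0.16, and Exosc5, of the ring, at 0.36, 0.58 and 0.84. Exosc1, of the cap, was below WT under sgWdr4-1 (-0.39), level with it under sgWdr4-2 (0.00) and at 0.49 in cKO. Exosc10 was above WT with most others under sgWdr4-1 (0.55) and was at -0.32 under sgWdr4-2 and -0.62 in cKO. Exosc6 was listed at 0 in all 5 input libraries, while its footprints were 30.7 and 27.4 TPM under the guides, against 16.7 TPM in WT, and 26.0 TPM in cKO, against 21.7 TPM in ff, so no efficiency can be given.

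Of other ribosome biogenesis genes, from a list drawn up beside the members, 102 were tested in iBMDM and 93 in TAM. Input RNA of these genes was below ff in cKO for 82 of 93 (median -0.25; all genes 41.2% below). It was below WT under sgWdr4-1 for 79 of 102 (-0.11; all genes 36.8%) and under sgWdr4-2 for 41 of 102 (0.01; all genes 47.2%). Their footprints under sgWdr4-1 were at least 2-fold higher for 49 of 102 (median 0.91; all genes 16.1%) and lower for 1 (all genes 10.3%). Under sgWdr4-2 the footprint median was -0.01, with 0 higher (all genes 3.03%) and 1 lower (all genes 4.63%). In cKO it was -0.42, against -0.20 for all genes, with 0 of 93 higher (all genes 2.73%) and 10 lower (10.8%; all genes 8.15%). In translation efficiency 52 of 102 were at least 2-fold higher under sgWdr4-1 (median 1.09; all genes 14.8%) and 1 lower (all genes 13.7%). The highest there were Ftsj3 (2.16), Esf1 (2.16), Pdcd11 (2.14) and Shq1 (2.13), and the lower one was Taf1d, of the RNA polymerase I promoter complex, at -1.74. Under sgWdr4-2 the translation efficiency median was -0.01, with Rrp7a (1.12) and Efl1 (1.09) 2-fold higher (all genes 3.53%) and Rrp1b (-1.13) and Ddx51 (-1.07) lower (all genes 4.87%). In cKO it was -0.17, against -0.25 for all genes, with 0 of 93 at least 2-fold higher (all genes 4.03%). The 5 that were lower (5.38%) were a smaller share than the 16% of all genes, and among them were Ddx51 (-1.39), Nle1 (-1.37), Riok2 (-1.36) and Ddx10 (-1.12). Efl1, a GTPase that frees the large subunit from an anti-association factor, was past 2-fold under both guides (1.59 and 1.09). By limma 0 of 102 passed for input, footprints or translation efficiency, with 0, 1 and 1 at an unadjusted p under 0.05, where 0.73%, 0.863% and 2.19% of all genes were.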

How the data were processed

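Footprint and input libraries of 5 conditions were analysed. Per the labels' protocols, footprints were made with RNase I, depleted of ribosomal RNA and built as small RNA libraries. The authors deposited TPM in 1 table of 6 iBMDM and 1 of 4 TAM libraries. The submitters' processing notes name fastp 0.18.0 and Bowtie2. The sources used here give no quantifier, build or annotation. Depth is unknown, since TPM does not keep it, so counting error is not covered. TPM are shares, so a rise of 1 abundant class lowers all others.

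Each table had 21956 rows. For repeated symbols (20) the row with the highest mean was kept. The pseudocount was 1 and the filter 5 TPM in mean input and in mean footprints. Tables were normalised separately and compared within themselves. In the iBMDM table limma 3.58.1 (R 4.3.3; empirical Bayes with trend, two-sided, Benjamini-Hochberg adjusted p under 0.05 over all genes) compared both guide lines with WT, and was tested on simulated data. The labels name no separate cultures, so its p-values measure the spread between these libraries, largely pooled over genes, which may be technical. Alternatives were other pseudocounts, filters, scalings and fold lines, either guide left out, an unpaired fit and crossed TAM footprint labels.

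Members and lists were chosen with earlier results of these data known. Given in full were members past 2-fold under both guides, the 6 highest and 6 lowest in translation efficiency and the 3 highest and 3 lowest in input per comparison, the 2 with the most input per role, up to 4 other pathway genes per direction, and members chosen after their values were seen. Of the members, 69 matched the RefSeq gene table by symbol and 16 of these overlap a protein-coding gene there. Tables were handled in pandas 2.3.3 on Python 3.11.15, with numpy 2.4.6, and plots drawn in matplotlib 3.10.9.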

Additional observations from a re-analysis of the deposited data

Results flagged for a closer look

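The members' median footprint change had opposite signs in the tables, at 0.99 under sgWdr4-1 and 0.13 under sgWdr4-2 and at -0.20 in cKO. The difference between tables was not tested. Medians over all genes were 0.09, -0.03 and -0.20, and with libraries rescaled to equal medians the cKO value was 0.002.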

How the results depend on the processing

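With libraries rescaled to equal medians, the all-gene median in cKO moved from -0.25 to 0.04 for translation efficiency and from -0.20 to 0.01 for footprints, and the members' medians to 0.45 and 0.002. Under sgWdr4-1 the same rescaling put the all-gene median at -0.03 for input and -0.04 for footprints. With the ff and cKO footprints crossed, the members' cKO medians were 0.49 for translation efficiency and 0.20 for footprints, and Nop10 was at -0.32. Over the scalings, pseudocounts and filters, the input median stayed between -0.40 and -0.30 in cKO and between -0.29 and -0.17 under sgWdr4-1, and that of translation efficiency between 1.04 and 1.21 under sgWdr4-1 and 0.16 and 0.26 under sgWdr4-2. The sgWdr4-2 input median lay between -0.02 and 0.01. Members 2-fold higher under both guides were 1 for footprints and 1 for translation efficiency. These became 0 and 0 with the filter at 20 TPM, which leaves Heatr1 out, and 7 and 8 at 1.5-fold. With equal medians translation efficiency had 3. The shares of all genes at these settings were not computed, so the counts cannot be set against other genes. With either guide left out in turn, the higher members numbered 1 to 33 for footprints and 1 to 40 for translation efficiency, the larger counts without sgWdr4-2, and the lower members 0 to 1 in each. With no filter 1 member, Nol4, was lower in footprints and in translation efficiency. The unpaired limma fit of translation efficiency (no replicate block) called 0 members, as did every other limma fit. No paired analysis beyond this was possible because each condition has 1 library of each kind. Depth is unknown, so members with a few TPM of footprints, such as Utp20, Utp25 and Heatr1 in WT, carry an error that cannot be given.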

Other observations

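The 72 members together took 1.06% of footprint TPM under sgWdr4-1 and 0.751% under sgWdr4-2, against 0.536% in WT, and 0.554% in cKO, against 0.519% in ff. Of input they took 0.881% and 1.06% under the guides, against 1.06% in WT, and 0.826% in cKO, against 1.08% in ff. The members that match by name alone were low throughout. Nol3, an apoptosis repressor, did not exceed 1.45 TPM in any library, and Nol4 lay between 1.99 and 3.31 TPM in input. RNA polymerase I subunits were uneven in level. In footprints the highest, Polr1d, was 32.2 times the lowest, Polr1a, in cKO, against 19.99 times the lowest, Polr1b, in ff. It was 31.5 times the lowest, Polr1a, under sgWdr4-2 and 8.61 times the lowest, Polr1f, under sgWdr4-1, against 15.6 times the lowest, Polr1e, in WT.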
